A study of Mus musculus with 6 samples.

Results

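A set of 10 RNA-binding regulators of germ cell transcripts was examined in leptotene/zygotene (L/Z) spermatocytes of control and Eef1g-cKO mice. The 10 genes were Dazl, Boll, Ythdc2, Meioc, Rbm46, Rbpms2, Cpeb1, Ybx2, Celf1 and Msi2, taken by symbol out of 54532 genes in the count table. They were chosen by function, as proteins that control the translation and decay of meiotic mRNAs, with results of the control against Eef1g-cKO contrast already in view. Their differences between genotypes are therefore given below as a description, with a standard error (SE) and without a test. All 10 passed the low-count filter that left 8513 genes; Ybx2 passed through its control libraries, with 27, 20 and 38 reads there against 11, 32 and 5 in Eef1g-cKO.

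The cells came from testes of male C57BL/6J mice at 12 days postpartum (dpp) and were sorted by flow cytometry. In the 3 Eef1g-cKO libraries, a block of internal Eef1g exons had been removed by Stra8-GFPCre, a recombinase that is active in the germ line from spermatogonia onward, before meiosis begins. The 3 control libraries came from littermates, labelled as wild type, and the sources do not say whether each library came from a separate animal, so the spread between libraries may be partly technical. Eef1g encodes the gamma subunit of eukaryotic elongation factor 1, which serves the delivery of aminoacyl-tRNA to the ribosome.

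Early prophase spermatocytes depend heavily on control of mRNAs that already exist. DAZ family proteins bind uridine-rich elements in 3′ untranslated regions and favour translation through poly(A)-binding protein, whereas CPEB proteins act through cytoplasmic polyadenylation. The YTHDC2, MEIOC and RBM46 proteins work together on transcripts of the mitotic programme at meiotic entry, and Y-box, CELF and musashi proteins store, destabilise or repress other sets of mRNAs. RNA was captured by its poly(A) tail, so a change in tail length and a change in transcript amount cannot be told apart in these libraries.

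The promoters of Rbpms2, Dazl and Meioc, which had the 3 largest positive differences, and of Msi2, which had the largest negative one, are printed for comparison. Each is the 250 bases before a RefSeq transcription start in GRCm38.p6, given 5′ to 3′ on the strand of the gene; capitals mark a CCAAT box (CCAAT or its complement ATTGG), an E-box (CACGTG) or a cAMP response element (TGACGTCA). They lie at chr17:50293621-50293870 on the minus strand (Dazl), chr11:102665335-102665584 on the plus strand (Meioc), chr9:65630332-65630581 on the plus strand (Rbpms2) and chr11:88718278-88718527 on the minus strand (Msi2). Of the 250 bases, all of Meioc and Rbpms2, 236 of Msi2 and 16 of Dazl lie inside the annotated gene span, and 23 of Rbpms2 and 16 of Dazl are annotated as exon.
Dazl: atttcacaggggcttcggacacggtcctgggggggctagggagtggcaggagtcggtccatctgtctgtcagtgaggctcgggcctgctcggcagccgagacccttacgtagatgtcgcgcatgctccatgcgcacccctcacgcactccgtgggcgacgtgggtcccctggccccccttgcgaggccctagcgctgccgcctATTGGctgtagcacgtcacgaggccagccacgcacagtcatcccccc
Meioc: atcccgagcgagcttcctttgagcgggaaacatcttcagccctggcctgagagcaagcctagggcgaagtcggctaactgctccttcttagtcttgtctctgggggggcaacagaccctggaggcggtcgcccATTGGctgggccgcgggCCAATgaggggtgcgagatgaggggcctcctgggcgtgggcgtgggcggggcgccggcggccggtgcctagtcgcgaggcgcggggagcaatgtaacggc
Rbpms2: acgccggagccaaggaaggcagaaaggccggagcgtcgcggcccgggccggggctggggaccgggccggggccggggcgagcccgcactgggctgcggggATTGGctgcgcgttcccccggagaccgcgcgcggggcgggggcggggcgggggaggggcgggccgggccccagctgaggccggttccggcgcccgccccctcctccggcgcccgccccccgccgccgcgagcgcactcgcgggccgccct
Msi2: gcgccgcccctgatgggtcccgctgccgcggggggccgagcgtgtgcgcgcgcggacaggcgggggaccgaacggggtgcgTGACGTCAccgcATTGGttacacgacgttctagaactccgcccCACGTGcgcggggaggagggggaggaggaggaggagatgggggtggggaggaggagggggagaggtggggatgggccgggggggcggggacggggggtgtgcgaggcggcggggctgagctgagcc

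All 4 windows were rich in G and C. Their GC content was 67.2% (Dazl), 67.6% (Meioc), 84.8% (Rbpms2) and 75.6% (Msi2), against a median of 52.4% over 32851 promoters of the same length. They held 20, 22, 41 and 29 CpG dinucleotides, against a median of 6. A CCAAT box, counted on both strands and over every listed promoter of a gene, was found in 7 of the 9 regulators with a promoter in the table and in 37.5% of 27025 genes. In Dazl it began 47 bases before the start. The E-box was found in 3 regulators (Boll, Rbm46 and Msi2) and in 6.86% of genes, and the cAMP response element in Msi2 and in 1.77%. TATAAA was found in Cpeb1 and in 14.3% of genes, and GGCGGGAA, an E2F-type motif, in none of the 9 regulators and in 2.13%. Cpeb1 and Celf1 had no CCAAT box in this window.

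Short stretches of 3′ untranslated region are shown for Dazl and Rbpms2, because the RNA was captured by its poly(A) tail and because CPEB1 binds the cytoplasmic polyadenylation element (CPE). Capitals mark AATAAA, the signal for cleavage and polyadenylation, or TTTTAT, a CPE, as DNA on the strand of the gene in GRCm38. The Dazl sites lie at chr17:50279541-50279568 (upstream) and chr17:50279402-50279429 (distal) on the minus strand. The Rbpms2 sites lie at chr9:65660355-65660382 (CPE) and chr9:65660496-65660523 (signal) on the plus strand.
Dazl upstream signal: gaaaagtaagggAATAAActtttgtctg
Dazl distal signal: cttgtatacacgAATAAAaccttttttt
Rbpms2 CPE: tgtgcaattttgTTTTATtttacgagca
Rbpms2 signal: aatgaaatgcaaAATAAAaacctgaagt

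The upstream Dazl signal began 160 bases and the distal one 21 bases before the annotated transcript end. Within the last 300 bases of the principal transcript, on the transcribed strand alone, AATAAA was found in 4 of the 7 regulators examined and in 70.3% of 15332 genes. Boll, Rbm46 and Ythdc2 were not examined, nor were other genes of chromosome 18. TTTTAT was found in Rbpms2 and Ybx2 and in 29.2% of genes, and TTTTAAT, a CPE variant, in Cpeb1 and Celf1 and in 11.0%. TTTGTTT was found in Rbpms2, Ybx2 and Celf1 and in 14.3% of genes, and TTTCTTT in Cpeb1 and Msi2 and in 12.9%. TGTANATA, the Pumilio element, was found in none of the 7 regulators examined and in 9.63% of genes. No match in these windows says anything of the rest of a 3′ untranslated region.

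Library totals ran from 763133 reads in Eef1g-cKO replicate 3 to 2617648 reads in Eef1g-cKO replicate 2, so that 3 reads, used as a detection floor, corresponded to 1.18 to 4.63 CPM (reads per 1000000 reads of the TMM-scaled library size). Eef1g-cKO replicate 3 also had the fewest genes detected, at 11174 against 12770 to 15761 in the others. Its log2 CPM correlated with Eef1g-cKO replicates 1 and 2 at r = 0.863 and 0.866, whereas r between those 2 was 0.911. No molecular identifiers were used, and such floors cover counting error only. The targeted gene Eef1g had 222, 226 and 212 CPM in control and 139, 151 and 119 CPM in Eef1g-cKO libraries, without overlap. On the log2 scale the difference was −0.68 (SE 0.20; adjusted p = 0.029 in edgeR's quasi-likelihood test with Benjamini-Hochberg adjustment). Exons outside the deletion are counted too. Its adjusted p missed 0.05 when any 1 control library or Eef1g-cKO replicate 1 was left out, at 0.0837 to 0.121. It also missed 0.05 without a low-count filter (0.0837), with a replicate block (0.0585), with an offset for GC content (0.176, where the log2 difference was −0.43) and with that offset and the block together (0.241).

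Dazl was by far the most abundant of the 10 transcripts. This gene (ENSMUSG00000010592, chr17:50279395-50293636, minus strand, GRCm38) encodes the RNA-recognition protein required for germ cell development in both sexes. Its level was 5368, 5813 and 6129 CPM in control and 14109.8, 12621 and 14909.8 CPM in Eef1g-cKO libraries. Every Eef1g-cKO library lay above every control library, and the libraries within a genotype were close together, with coefficients of variation of 6.62% and 8.37%. The means were 5770.1 ± 382 and 13880.1 ± 1162 CPM (SD, n = 3), which differed by 1.27 on the log2 scale (SE 0.12). Among the tested genes of each library, ranked by CPM per kilobase of gene length, Dazl moved from places 20 to 21 in control to places 5 to 6 in Eef1g-cKO.

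Boll (ENSMUSG00000025977, chr1:55248658-55363469, minus strand), the other DAZ family gene of the mouse, acts at the meiotic divisions and in later male germ cells. Its level was 83.2, 90.3 and 84.0 CPM in control and 219, 193 and 144 CPM in Eef1g-cKO. The Eef1g-cKO libraries were all higher, the lowest being replicate 3, and the log2 fold change was 1.12 (SE 0.23). Dazl exceeded Boll per kilobase by a ratio of 59.4, 59.2 and 67.1 in control and 59.2, 60.3 and 95.5 in Eef1g-cKO. The ratio thus stayed within the control range in all but Eef1g-cKO replicate 3.

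**Figure D1:**
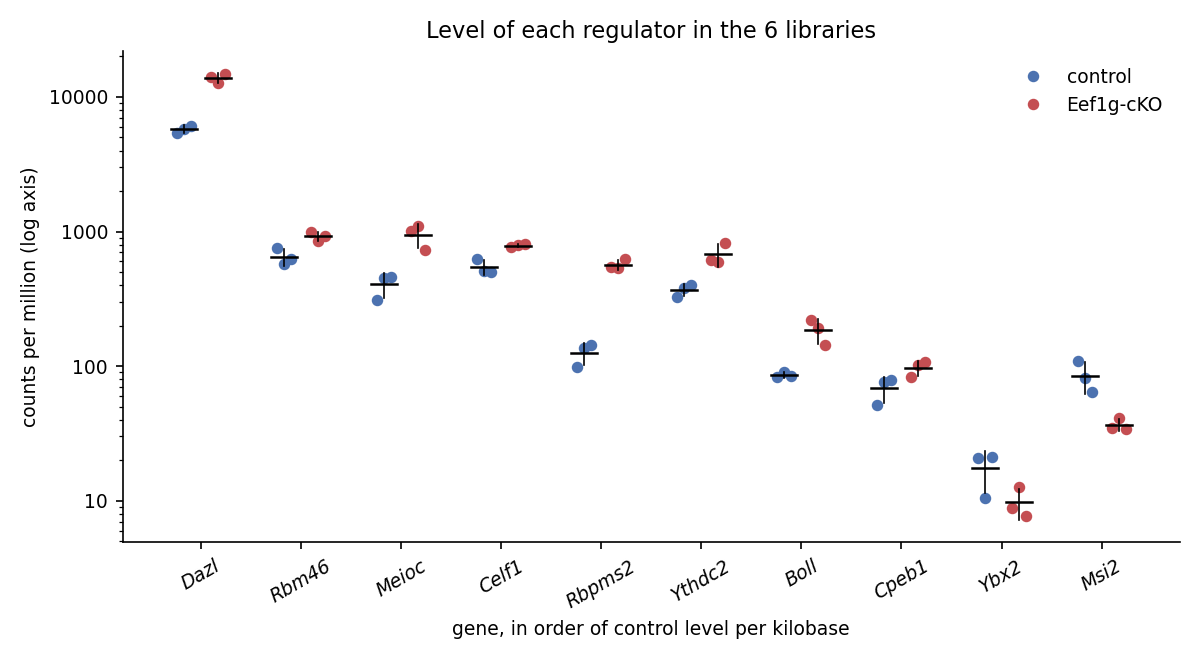
Level of each regulator in CPM (log axis) in the 3 control (blue) and 3 Eef1g-cKO (red) libraries; horizontal bars are means and vertical bars SD. Points of the genotypes are separate for every gene except Ybx2, and Msi2 is the gene with separate points that is lower in Eef1g-cKO.

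The partners of meiotic entry were higher as well. Meioc (ENSMUSG00000051455, chr11:102663716-102682237, plus strand) encodes the protein that binds YTHDC2 and keeps cells in meiotic prophase. Its level was 309.9, 449 and 462 CPM in control and 1003, 1092 and 726 CPM in Eef1g-cKO. The groups did not overlap, although both varied by about the same proportion, with coefficients of variation of 20.8% and 20.3%, and the log2 fold change was 1.21 (SE 0.19).

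Ythdc2 (ENSMUSG00000034653, chr18:44827746-44889724, plus strand) encodes an RNA helicase with a YTH domain, which reads N6-methyladenosine (m6A). Its level was 327, 382 and 399 CPM in control and 611, 593 and 826 CPM in Eef1g-cKO, with the highest value in replicate 3, the library in which Meioc and Boll were lowest among the Eef1g-cKO libraries. The log2 fold change was 0.87 (SE 0.17). The ratio of Ythdc2 to Meioc per kilobase was 0.548, 0.442 and 0.448 in control and 0.317, 0.282 and 0.592 in Eef1g-cKO. The genotypes overlapped through Eef1g-cKO replicate 3 alone, the library with the fewest reads.

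Rbm46 (ENSMUSG00000033882, chr3:82837228-82876483, minus strand) encodes a germ cell protein that targets mRNAs for decay together with the YTHDC2 complex. It was the second most abundant regulator per kilobase in both genotypes. Its level was 749, 570.1 and 629 CPM in control and 995, 852 and 922 CPM in Eef1g-cKO. The groups did not overlap, and the log2 fold change was 0.51 (SE 0.15).

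Rbpms2 showed the largest difference of the set. The gene (ENSMUSG00000032387, chr9:65629648-65660528, plus strand) encodes an RNA-recognition protein known from smooth muscle and from oocyte fate in fish. Its level was 98.5, 135 and 143 CPM in control and 544, 532 and 624 CPM in Eef1g-cKO. The lowest Eef1g-cKO library was thus far above the highest control library, and the log2 fold change of 2.16 (SE 0.19) corresponded to a 4.48-fold difference. Its rank per kilobase moved from 923 to 1323 in control to 204 to 250 in Eef1g-cKO. Its paralogue Rbpms, named here after its values were seen, was low in these cells, at 10.7, 8.40 and 23.0 CPM in control and 6.47, 1.57 and 0 CPM in Eef1g-cKO, and its log2 difference was −2.28 (SE 0.92; edgeR adjusted p = 0.108).

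Cpeb1 (ENSMUSG00000025586, chr7:81347026-81455465, minus strand) encodes the founding CPE-binding protein. Its level was 51.1, 75.6 and 78.4 CPM in control and 82.5, 101 and 107 CPM in Eef1g-cKO. The highest control and the lowest Eef1g-cKO library were close, and the log2 fold change of 0.49 had an SE of 0.28. Celf1 (ENSMUSG00000005506, chr2:90940382-91019497, plus strand), whose product binds GU-rich elements and promotes deadenylation, was at 624, 506 and 499 CPM in control and 763, 791 and 806 CPM in Eef1g-cKO, with a log2 fold change of 0.54 (SE 0.15). Its Eef1g-cKO libraries were the tightest of the set, with a coefficient of variation of 2.82%.

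Msi2 and Ybx2 pointed the other way. Msi2 (ENSMUSG00000069769, chr11:88339382-88718513, minus strand), a musashi family translational regulator, was at 108, 81.9 and 63.8 CPM in control and 34.8, 41.2 and 34.0 CPM in Eef1g-cKO. All Eef1g-cKO libraries lay below the lowest control library, and the log2 fold change was −1.19 (SE 0.32). Ybx2 (ENSMUSG00000018554, chr11:69935796-69941605, plus strand), the germ cell Y-box protein that binds stored mRNAs in later spermatocytes and spermatids, was at 20.6, 10.5 and 21.3 CPM in control and 8.89, 12.5 and 7.72 CPM in Eef1g-cKO. Its genotypes overlapped, and the log2 fold change of −0.80 had an SE of 0.61.

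Seen together, 8 of the 10 genes had a positive difference, and the median log2 fold change of the set was 0.70, against −0.05 over all 8513 genes. Without overlap between genotypes, 8 were higher and 1 lower, where 16.4% and 18.1% of all tested genes were so separated. Nothing is read from these counts, because the set was chosen with the same contrast known. None of the 10 genes shares exonic bases with another annotated gene.

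**Figure D2:**
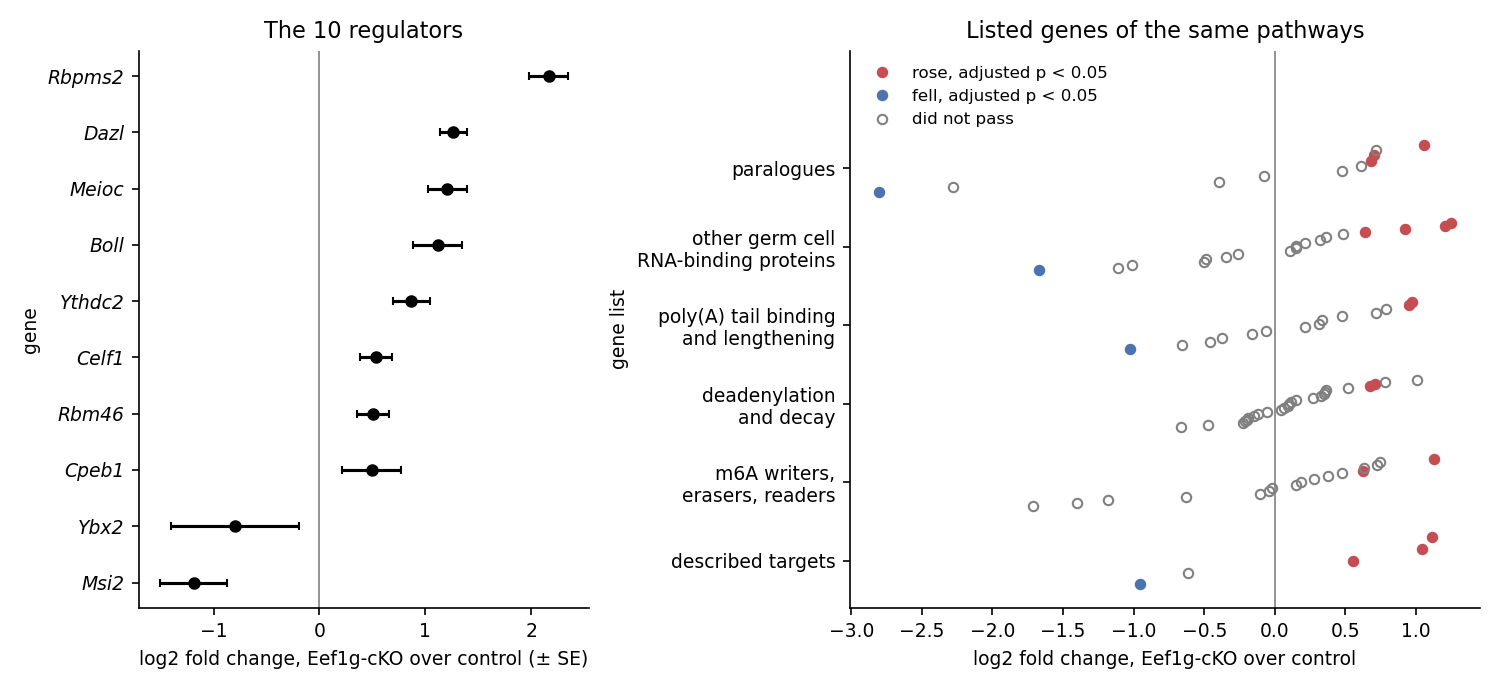
Log2 fold change of Eef1g-cKO over control for the 10 regulators with SE (left) and for the tested genes of 6 lists from the same pathways (right), where filled points passed an adjusted p of 0.05. The regulators run from −1.19 for Msi2 to 2.16 for Rbpms2, and most listed genes are open points on both sides of 0.

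The order of the levels per kilobase differed between genotypes in the place of Rbpms2. In control it was Dazl, Rbm46, Meioc, Celf1, Rbpms2, Ythdc2, Boll, Cpeb1, Ybx2 and Msi2. The neighbours Meioc and Celf1, Rbpms2 and Ythdc2, and Ybx2 and Msi2 overlapped in their library values. In Eef1g-cKO the mean of Rbpms2 stood above those of Meioc and Celf1, and the other genes kept their order. Rbpms2 overlapped Meioc and exceeded it in 1 library alone, replicate 3, with 249 against 157 CPM per kilobase. Celf1 and Ythdc2 also overlapped in Eef1g-cKO. The mean for Dazl was 5.81 times that of Rbm46 in control and 9.84 times in Eef1g-cKO. By CPM without gene length, 3 of 10 genes in either genotype kept the same place.

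**Figure D3:**
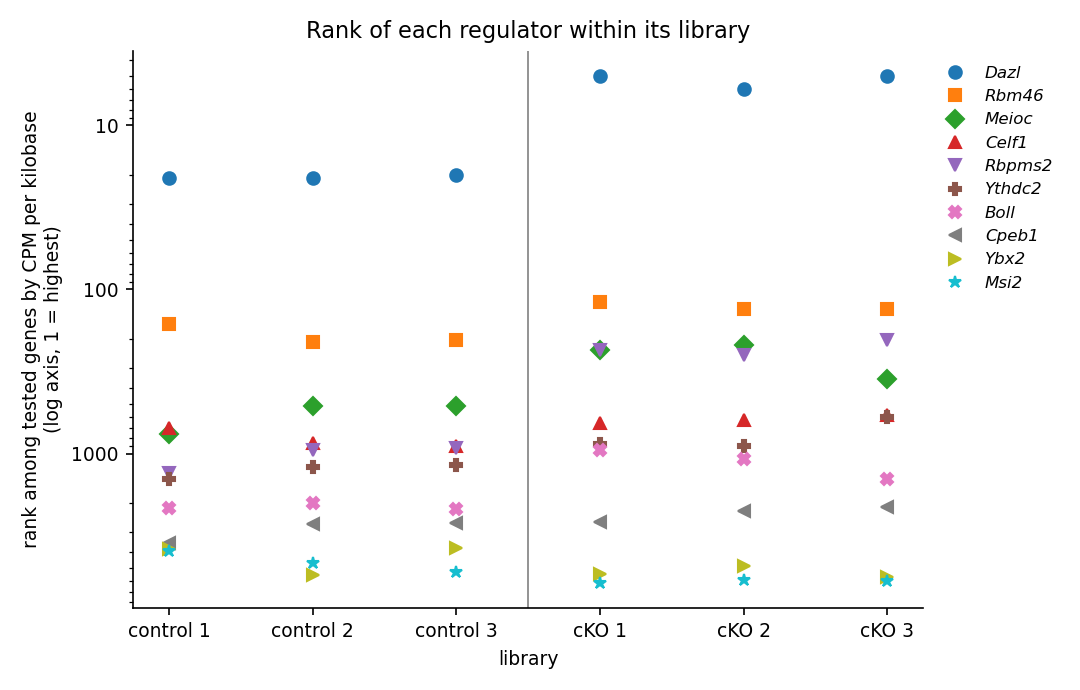
Rank of each regulator among 8513 tested genes by CPM per kilobase (log axis, 1 is the highest) in each library. Dazl stands at 20 to 21 in control and 5 to 6 in Eef1g-cKO, and Msi2 and Ybx2 stand lowest.

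The genes whose log2 CPM most resembled that of Dazl over the 6 libraries were Fmr1, Txnl1, Slc30a4, Hfm1 and 4930447C04Rik, with Pearson's r of 0.996 to 0.998 among 4705 genes ranked. Fmr1 encodes a translational repressor and Hfm1 a helicase of meiotic crossover formation. The 6 points are 3 libraries of each genotype, so r follows the difference between genotypes as well as any variation within them. Among the regulators, r with Dazl was 0.995 for Rbpms2, 0.962 for Ythdc2 and −0.963 for Msi2. It was 0.921 for Boll, 0.907 for Meioc, 0.893 for Celf1, 0.872 for Rbm46 and 0.792 for Cpeb1. Ybx2 was below the read limit for this ranking.

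Markers of cell types moved with genotype. The summed level of 9 L/Z markers was 8560 to 9813 CPM in control and 18606 to 24594 CPM in Eef1g-cKO, with 5 of the 9 higher and 0 lower at an adjusted p under 0.05 in edgeR. The labelled cell type thus had its defining transcripts, among them Dmc1, Sycp1 and Sycp3, in all libraries. Differentiating spermatogonial markers (7 genes) summed to 1074 to 1371 CPM in control and 784 to 884 CPM in Eef1g-cKO. At the same level, 4 of them were lower and 1, Rhox13, was higher, by 1.19 on the log2 scale (SE 0.26). The 10 undifferentiated spermatogonial markers summed to 123 to 162 CPM and 10.8 to 53.4 CPM. Only 2 of these passed the low-count filter: Sall4, which was lower and made up most of the control sum, and Id4, whose genotypes overlapped. Sertoli cell markers (8 genes) summed to 245 to 561 CPM and 103 to 113 CPM. Of the 5 tested, Cldn11, Aard and Rhox8 were lower. Sox9, whose genotypes overlapped, and Wt1 did not pass (edgeR adjusted p = 0.167 and 0.0591). Peritubular and stromal markers (5 genes) summed to 103 to 205 CPM and 10.8 to 42.3 CPM. Col1a1, Col3a1 and Dcn were lower. Acta2 and Myh11 missed the low-count filter, and their genotypes overlapped. Markers of pachytene and later germ cells (10 genes) summed to 25.2 to 46.5 CPM and 3.09 to 18.4 CPM, with Acrv1 and Prm2 at 0 in every library. Only 2 of these 10 genes passed the filter: Piwil1, which was lower, and Ldhc, whose genotypes overlapped. Leydig markers stayed at or below 10.7 CPM, and blood markers ran from 6.72 to 77.9 CPM and from 3.23 to 75.7 CPM. The part of these shifts in the differences of the regulators was not tested, and in bulk libraries fewer cells of a type and less RNA per cell cannot be told apart.

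**Figure D4:**
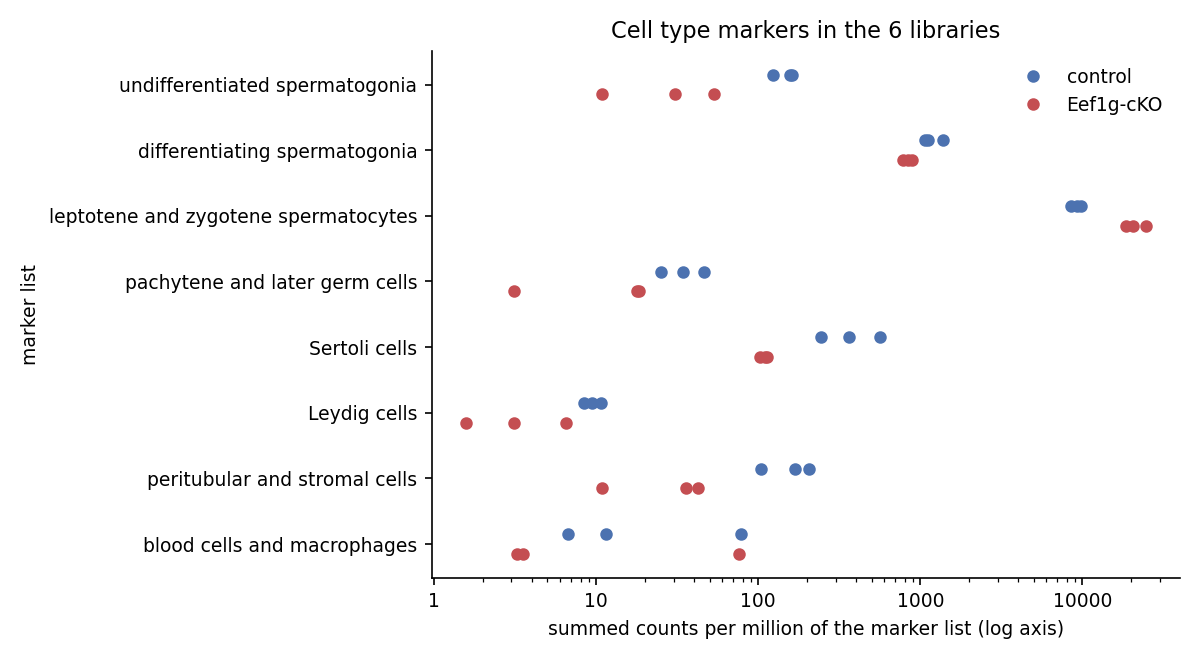
Summed CPM (log axis) of 8 cell type marker lists in each library. The L/Z sum is higher in every Eef1g-cKO library (18606 to 24594 CPM against 8560 to 9813 CPM). Sums for spermatogonia, for Sertoli cells and for peritubular and stromal cells are lower, although Rhox13, a differentiating spermatogonial marker, is higher. Some single markers, among them Sox9 and Acta2, overlap between genotypes.

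Set against these L/Z markers, a scale chosen after the data were seen, the regulators separated into groups. The Dazl level divided by the marker sum was 0.627, 0.592 and 0.660 in control and 0.684, 0.678 and 0.606 in Eef1g-cKO, so the genotypes overlapped, and the log2 ratio of the means was 0.07. Meioc (0.05) and Boll (−0.06) overlapped in the same way. Rbpms2 remained higher, at 0.0115 to 0.0154 in control and 0.0254 to 0.0286 in Eef1g-cKO, a log2 ratio of 0.98. Ythdc2 (−0.34), Rbm46 (−0.70), Celf1 (−0.67) and Cpeb1 (−0.68), higher by CPM, were lower on this scale without overlap, as were Msi2 (−2.40) and Ybx2 (−2.02). The marker sum itself was 2.31 times higher in Eef1g-cKO. Its largest part was Sycp1, with means of 5101 and 10487 CPM, whereas Meiob and Spo11 differed by 0.06 (SE 0.26; edgeR adjusted p = 0.906) and 0.07 (SE 0.26; 0.896) on the log2 scale. With Sycp1 and Sycp3 left out of the sum, Dazl was at 1.87 to 2.26 in control and 1.72 to 1.82 in Eef1g-cKO, lower without overlap. Boll was then at 0.0291 to 0.0332 and 0.0175 to 0.0268, also lower without overlap, while Meioc still overlapped and Rbpms2 was still higher, at 0.0392 to 0.0528 and 0.0665 to 0.0760.

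**Figure D5:**
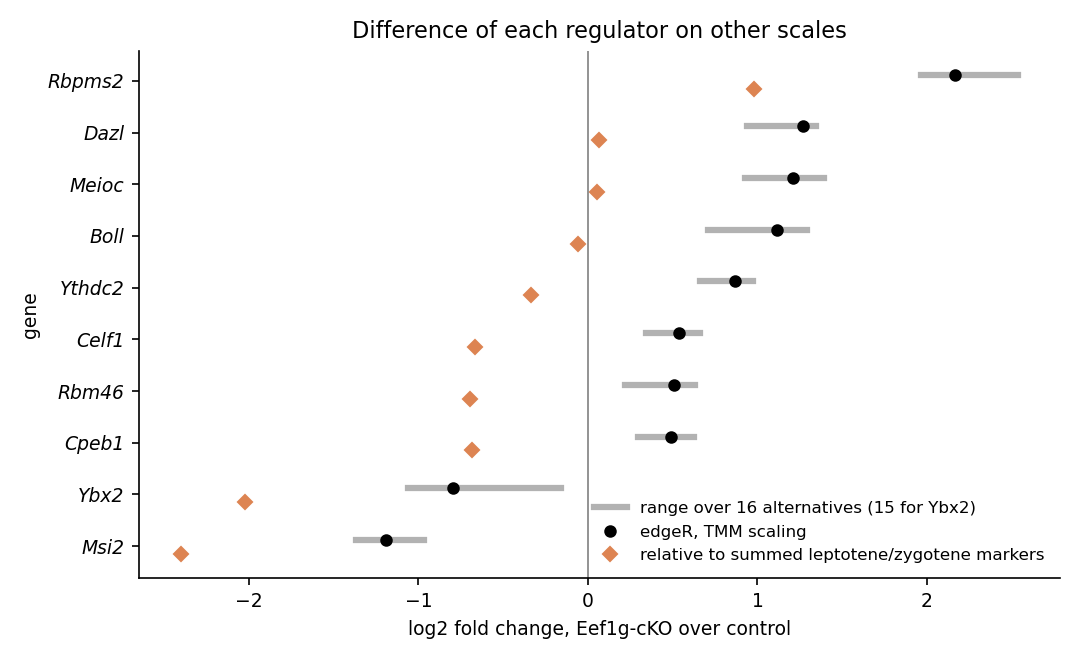
Log2 fold change of each regulator with TMM scaling (black), its range over 16 alternatives of processing (grey; 15 for Ybx2) and its log2 ratio relative to the sum of all 9 L/Z markers (orange). Rbpms2 is to the right of 0 on every scale, and Dazl, Meioc and Boll fall near 0 relative to this sum.

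Over 16 alternatives (15 for Ybx2), which changed the scaling, filter, tool, covariates or libraries, no regulator changed direction. The range was 0.94 to 1.35 for Dazl, 1.96 to 2.54 for Rbpms2, 0.93 to 1.39 for Meioc and 0.71 to 1.29 for Boll. It was 0.66 to 0.97 for Ythdc2, 0.34 to 0.66 for Celf1, 0.30 to 0.63 for Cpeb1 and 0.22 to 0.63 for Rbm46. Msi2 ran from −1.37 to −0.97 and Ybx2 from −1.06 to −0.16. The lowest values of Dazl, Boll and Rbm46 came with an offset for GC content. The longest transcripts of these genes have GC contents of 37.0%, 34.6% and 38.4%, against a median of 47.6% over tested genes. Meioc was at 38.5% and Ythdc2 at 42.0%, and a link between GC content and these ranges was not tested.

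Other genes of the same pathways were then tested, from 6 lists of 106 genes in all, 88 of which passed the filter. The lists were set by function, but with earlier results of these data known, so their counts and p-values are no independent support. In edgeR's quasi-likelihood test with adjustment over all 8513 genes, 16 rose and 4 fell in Eef1g-cKO, or 18.2% and 4.55% of the 88. These shares stand beside 7.8% and 6.01% of all tested genes, as a description. The genes that rose include Sycp1 and Sycp3, which are also L/Z markers. The median log2 fold change was 0.15, and 34 of the 88 had an unadjusted p under 0.05. The count of genes that rose was 8, 9 or 7 when control replicate 1, 2 or 3 was left out, and 7 with scaling by library totals alone. The count of genes that fell was 2 without control replicate 1 or 3 and 2 with the GC offset.

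Of 10 tested paralogues of the regulators, 3 rose and 1 fell, with a median of 0.54. These were 30% and 10%, beside 7.8% and 6.01% of all tested genes. Cpeb4, a CPEB family member of meiosis and the cell cycle, was at 134, 147 and 165 CPM in control and 319, 311 and 297 CPM in Eef1g-cKO. It rose by 1.06 on the log2 scale (SE 0.19; adjusted p = 0.00101). Cpeb2 and Celf2 also rose, by 0.68 (SE 0.19; adjusted p = 0.0223) and 0.70 (SE 0.18; adjusted p = 0.0149). Msi1, the paralogue of Msi2 and below the read limit set for naming genes, was at 60.3, 43.0 and 37.5 CPM in control and 4.85, 8.23 and 6.18 CPM in Eef1g-cKO. Its log2 fold change was −2.81 (SE 0.49; adjusted p = 0.000973), so both musashi genes were lower.

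Of 18 other germ cell RNA-binding proteins, 4 rose and 1 fell, with a median of 0.15. These were 22.2% and 5.56%, beside 7.8% and 6.01% of all tested genes. Fmr1 was at 608, 635 and 680 CPM in control and 1521, 1399.7 and 1519.9 CPM in Eef1g-cKO, and rose by 1.21 on the log2 scale (SE 0.14; adjusted p = 2.02e-05). Adad1, a testis RNA-binding protein with an adenosine deaminase domain, rose by 1.25 (SE 0.23; adjusted p = 0.00146). Pum2, a Pumilio repressor, rose by 0.64 (SE 0.16; adjusted p = 0.0123), and Lin28b, which blocks let-7 maturation, by 0.92 (SE 0.29; adjusted p = 0.0395). Nanos1, a partner of Pumilio proteins, fell from 53.4, 67.2 and 66.6 CPM to 22.6, 22.0 and 12.4 CPM, with a log2 difference of −1.67 (SE 0.38; adjusted p = 0.00611).

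Factors that lengthen or shorten poly(A) tails were tested next. Of 14 tested genes for poly(A) binding and lengthening, 2 rose and 1 fell, with a median of 0.27. These were 14.3% and 7.14%, beside 7.8% and 6.01% of all tested genes. The genotypes did not overlap, in 1 direction or the other, for 10 of these 14 genes, where 16.4% of all tested genes were higher and 18.1% lower without overlap. The same count was 41 of 88 over all lists, with 7 of 10 paralogues and 8 of 18 other RNA-binding proteins. It was 6 of 25 for decay factors, 6 of 17 for m6A genes and 5 of 5 for described targets. These counts pool both directions, so they stand beside the 2 shares added together. The count for decay factors was below that background and the count for m6A genes close to it. Papolg, a nuclear poly(A) polymerase, rose by 0.97 (SE 0.24; adjusted p = 0.0111), and Paip2b, an inhibitor of poly(A)-binding protein, by 0.95 (SE 0.24; adjusted p = 0.0123). Pabpc4, a cytoplasmic poly(A)-binding protein, fell from 138, 99.2 and 115 CPM to 77.6, 56.5 and 35.5 CPM, with an adjusted p of 0.0282. Of 25 deadenylation and decay factors, 2 rose (8%, close to the 7.8% of all tested genes) and 0 fell, with a median of 0.10. They were Tob1, which recruits the CCR4-NOT complex (0.71, SE 0.19; adjusted p = 0.0171), and Cnot6l, a deadenylase subunit of it (0.68, SE 0.21; adjusted p = 0.0415).

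Of 17 m6A genes, 2 rose and 0 fell, with a median of 0.18 and a range of −1.71 to 1.13. The share that rose was 11.8%, beside 7.8% of all tested genes. Mettl14, a subunit of the m6A methyltransferase, was at 84.0, 83.5 and 101 CPM in control and 184, 135 and 276 CPM in Eef1g-cKO, and rose by 1.13 on the log2 scale (SE 0.26; adjusted p = 0.00688). Ythdf2, the cytoplasmic m6A reader that promotes decay, rose by 0.62 (SE 0.16; adjusted p = 0.0149).

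Transcripts described as targets of the regulators did not move as a block. Sycp3 and Sycp1, synaptonemal complex genes translated under DAZL or CPEB1, rose by 1.11 (SE 0.14; adjusted p = 3.31e-05) and 1.04 (SE 0.15; adjusted p = 0.000151). Sycp3 was at 1237, 1454 and 1332 CPM in control and 2693, 2786 and 3234 CPM in Eef1g-cKO. Ddx4, a germ cell helicase and DAZL target, rose by 0.55 (SE 0.15; adjusted p = 0.0180). Tex19.1, a DAZL target that restrains transposons, fell from 177, 118 and 131 CPM to 51.8, 72.9 and 97.3 CPM (log2 fold change −0.96, SE 0.28; adjusted p = 0.0267). Ccna2, the mitotic cyclin gene repressed by the MEIOC and YTHDC2 complex, was at 206, 176 and 261 CPM in control and 139.9, 172 and 100.4 CPM in Eef1g-cKO, with a log2 fold change of −0.62 that did not pass (SE 0.23; adjusted p = 0.0858). The protamine genes Prm1 and Prm2, whose mRNAs YBX2 stores in spermatids, had 2 reads and 0 reads in all libraries together. Sycp1 and Sycp3 are also L/Z markers, so their direction is shared with that list.

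Among the 20 pathway genes that passed, 8 passed under every alternative in which they were tested, namely Cpeb4, Msi1, Nanos1, Adad1, Fmr1, Mettl14, Sycp1 and Sycp3. The other 12 missed the level in at least 1. Lin28b missed it in 11, and Cnot6l and Ddx4 in 10, of 16 alternatives.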

How the data were processed

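RNA-seq of 3 control and 3 Eef1g-cKO L/Z spermatocyte libraries was analysed from the deposited raw read counts per gene. The authors filtered reads with fastp, aligned them to GRCm38 with HISAT2 and counted reads per gene with featureCounts, without pooling replicates. The gene length deposited beside the counts was used for CPM per kilobase. Strand and multi-mapping settings are not given in the sources used here. Groups and replicate numbers came from the sample titles.

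Counts were tested with edgeR 4.0.16 in R 4.3.3 (filterByExpr with minimum count 10 and total 15, TMM scaling, robust quasi-likelihood F test, genotype as the only term), with Benjamini-Hochberg adjustment over 8513 genes. This procedure was tested on simulated data. SE was derived from the fold change and F. Library totals of 763133 to 2617648 reads limit the precision for low genes. DESeq2 1.42.0 and limma-voom (limma 3.58.1) were among the alternatives. The regulators and the gene lists were chosen with earlier results of these data known. Named pathway genes passed an adjusted p of 0.05, in each list and direction the 4 or fewer that differed most, if they averaged 50 reads or more, plus all described targets. The 5 genes most like Dazl were ranked by Pearson's r under the same read limit. Genes named outside these rules are marked. Promoters come from RefSeq (GRCm38.p6) and transcript ends from GENCODE M21, which has the same gene spans for the regulators.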

Additional observations from a re-analysis of the deposited data

How the results depend on the processing

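No regulator changed direction with another scaling, filter, tool or covariate, or without any 1 library. Relative to the summed L/Z markers, an alternative chosen after seeing the data, the log2 ratio was negative for Boll (−0.061), Ythdc2 (−0.34), Rbm46 (−0.70), Celf1 (−0.67) and Cpeb1 (−0.68). When Sycp1 and Sycp3 were left out of the markers it was negative for these (−0.40, −0.64, −1.02, −0.99 and −0.99) and also for Dazl (−0.25, now without overlap between genotypes, as for Boll) and Meioc (−0.28), while Rbpms2 stayed at 0.67. Over all genes, 664 were higher and 512 lower. With library totals alone the higher count was 333, with the GC offset and replicate block together the counts were 420 and 295, and leaving out 1 library gave 374 to 834 and 238 to 668. Lower genes made up 43.5% of the calls, 58.0% with upper-quartile scaling and 65.9% with library totals, which shifted the median over all genes by −0.12 and −0.19 (log2); the filter of 10 reads in every library moved it by −0.14 over the genes kept. The 16 pathway genes that rose became 7 with library totals and 7 to 21 without 1 library, and the 4 that fell became 2 with the GC offset, 2 with the GC offset and replicate block, and 2 to 5 without 1 library. Eef1g had a log2 fold change of −0.64 without a low-count filter (adjusted p = 0.0837), −0.69 with the replicate block (0.0585), −0.43 with the GC offset (0.176), −0.44 with both (0.241), and −0.75 to −0.56 without 1 library. The cause was not tested. Same-numbered libraries did not deviate together (r = −0.04, 0.02 and −0.05), so the numbers were not taken as pairs. A replicate block left 496 higher and 377 lower genes; of the pathway genes 13 rose and 3 fell, and the values for Dazl, Rbpms2 and Msi2 were 1.26, 2.18 and −1.18. With totals down to 763133 reads, depth limits Ybx2 and Msi2 most.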
